A study of Homo sapiens with 3 samples.

Results

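Long intergenic non-coding RNA (lincRNA) genes are transcription units that lie between protein-coding genes and make spliced or single-exon RNAs without a long open reading frame. Some act through the transcript itself, as a scaffold or decoy for proteins. Others are hosts, whose introns or exons are cut into small nucleolar RNAs or microRNAs, and others start at a promoter shared head to head with a protein-coding gene. As a class they are known for lower levels and for more tissue-restricted expression than protein-coding genes, and several serve as prostate cancer markers.

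The genes described here are 136 well expressed lincRNA genes among 58735 annotated genes. They were chosen as the genes with the lincRNA biotype and at least 10 CPM (the count divided by its library total, times 1000000) in at least 1 of 3 prostate cancer cell lines. A group of 10 familiar names was left out (H19, MEG3, PCAT1, DRAIC, MALAT1, NEAT1, PVT1, LINC00857, MIR99AHG and LINC00707), of which 6 would have passed as lincRNA genes. In all, 7629 genes carried the lincRNA biotype, 3342 of them had at least 1 count, 956 reached 1 CPM and 142 reached 10 CPM with the left-out names included. Since the level chose the members, the levels and the ratios between lines are given as a description. The class comparison was fitted over all genes, and nothing is read from the members' counts in it.

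The androgen-dependent class (ADPC) of the study was LNCAP, an androgen-responsive line of lymph node origin. Its castration-resistant class (CRPC) was made up of PC3, of bone origin, and DU145, of brain origin, both able to grow in the absence of androgen. Each established line gave 1 library of total RNA from cultures in medium with fetal bovine serum, and the labels name no treatment or genetic change. The labels list several media without tying them to a line. No line has a replicate, each class is represented by very few lines, and the lines differ in origin as well as in class, so class and line cannot be told apart.

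Library totals were 15393103, 15319045 and 15878546 counts for LNCAP, PC3 and DU145. The 136 genes took 0.253%, 0.256% and 0.218% of them in that order, and all lincRNA genes together took 0.604%, 0.513% and 0.448%. The 5 epithelial markers (KRT8, KRT18, EPCAM, CDH1 and KRT19) stood at 1 CPM or more in every line, although CDH1 ranged from 798 CPM in LNCAP to 2.22 in PC3 and 143 in DU145, while the 4 fibroblast markers and the 4 blood cell markers stayed below 1 CPM in every line. The 7 luminal and androgen-response markers summed to 5832 CPM in LNCAP, 397 in PC3 and 18.0 in DU145. The 5 basal or mesenchymal markers (KRT5, TP63, VIM, CD44 and CAV1) went the other way, with 3.57, 942 and 1070 CPM in all, of which KRT5 and TP63 stayed below 1 CPM in every line. The 3 endothelial markers summed to 9.48, 20.1 and 0.945 CPM and the 3 neural markers to 0.390, 0.522 and 6.30. The part of these markers in the differences described here was not tested.

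Just inside the threshold stood RAB30-AS1, with 10.00 CPM in LNCAP, and LINC00973 and TTLL11-IT1, each with 10.1 CPM in PC3. Just outside it stood CRNDE and AC100768.2, each with 9.94 CPM in LNCAP, and AL121772.1, with 9.92 CPM in PC3. The members were spread over 24 chromosomes, from 11 genes on chromosome 1 to 1 gene on the Y chromosome. The Y-linked gene enters the counts below, and its level is not given. Clone-based names, which stand for genes without a described function, were carried by 51 members.

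Sequences of 2 kinds help to read the members. The first are the microRNAs that lie inside host members. Each mature sequence is from RefSeq (GRCh38.p14), 5′ to 3′, with the seed (bases 2 to 8, which pair with the target) in capitals. Some seeds occur in more than 1 of the microRNAs shown: let-7a, let-7b and let-7i share GAGGUAG, miR-221 and miR-222 share GCUACAU, and miR-29b and miR-29c share AGCACCA.
hsa-let-7a-5p in MIRLET7BHG: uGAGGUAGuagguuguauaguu
hsa-let-7b-5p in MIRLET7BHG: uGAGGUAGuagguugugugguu
hsa-let-7i-5p in AC048341.1: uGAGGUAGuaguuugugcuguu
hsa-miR-221-3p in MIR222HG: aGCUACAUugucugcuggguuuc
hsa-miR-222-3p in MIR222HG: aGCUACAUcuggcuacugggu
hsa-miR-29b-3p in MIR29B2CHG: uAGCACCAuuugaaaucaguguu
hsa-miR-29c-3p in MIR29B2CHG: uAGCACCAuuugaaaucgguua
hsa-miR-34a-5p in MIR34AHG: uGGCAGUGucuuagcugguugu
hsa-miR-503-5p in MIR503HG: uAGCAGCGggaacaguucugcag
hsa-miR-137-3p in MIR137HG: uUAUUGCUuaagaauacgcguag
hsa-miR-22-3p in MIR22HG: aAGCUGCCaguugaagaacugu
hsa-miR-4435 in CYTOR and in MIR4435-2HG: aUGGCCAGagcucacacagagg

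The second kind are promoter windows of 300 bases, 250 before and 50 after the RefSeq start, shown for 2 members that differed by under 2-fold across the lines and for 3 that were higher in PC3 and in DU145 than in LNCAP. For the members under 2-fold, URB1-AS1 (chr21:32392883-32393182, plus strand) and SCAMP1-AS1 (chr5:78360492-78360791, minus strand), the capitals mark CG dinucleotides, of which there were 28 and 41.
URB1-AS1: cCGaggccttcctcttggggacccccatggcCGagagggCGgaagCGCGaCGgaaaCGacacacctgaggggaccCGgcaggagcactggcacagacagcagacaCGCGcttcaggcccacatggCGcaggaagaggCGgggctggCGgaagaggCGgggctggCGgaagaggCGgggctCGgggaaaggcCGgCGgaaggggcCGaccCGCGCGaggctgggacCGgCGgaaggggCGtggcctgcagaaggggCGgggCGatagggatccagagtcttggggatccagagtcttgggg
SCAMP1-AS1: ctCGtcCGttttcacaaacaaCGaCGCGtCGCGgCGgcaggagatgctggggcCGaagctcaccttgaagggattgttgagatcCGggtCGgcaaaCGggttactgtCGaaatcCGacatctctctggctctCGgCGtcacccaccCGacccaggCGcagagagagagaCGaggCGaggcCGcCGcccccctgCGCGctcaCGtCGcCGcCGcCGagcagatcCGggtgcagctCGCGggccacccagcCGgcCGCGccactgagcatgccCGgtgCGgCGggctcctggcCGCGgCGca

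For OLMALINC (chr10:100373326-100373625, plus strand), MANCR (chr10:4678021-4678320, minus strand) and CYTOR (chr2:87455177-87455476, plus strand), the capitals mark TGANTCA. These letters are a looser form of the AP-1 site, which reads TGACTCA or TGAGTCA. The match in OLMALINC and the first in MANCR read TGAATCA, and the other matches shown read TGAGTCA. The first match began 31 bases before the start in OLMALINC, 225 in MANCR and 19 in CYTOR, and MANCR and CYTOR held a further match at 126 and 9 bases before the start. All 3 windows shown hold these letters, so they do not stand for the group. Of the 9 members higher in both lines that have a promoter window, 4 held the letters.
OLMALINC: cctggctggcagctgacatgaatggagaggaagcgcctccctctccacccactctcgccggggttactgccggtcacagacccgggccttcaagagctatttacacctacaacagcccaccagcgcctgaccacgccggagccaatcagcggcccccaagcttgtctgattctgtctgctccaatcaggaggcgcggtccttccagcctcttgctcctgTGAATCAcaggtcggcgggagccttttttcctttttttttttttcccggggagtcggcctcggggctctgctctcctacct
MANCR: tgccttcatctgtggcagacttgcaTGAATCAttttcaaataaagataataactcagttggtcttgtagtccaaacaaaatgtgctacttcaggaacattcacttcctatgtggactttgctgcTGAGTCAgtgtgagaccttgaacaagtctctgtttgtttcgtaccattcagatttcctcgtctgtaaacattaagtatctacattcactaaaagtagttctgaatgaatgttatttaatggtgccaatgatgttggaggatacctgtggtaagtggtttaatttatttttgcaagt
CYTOR: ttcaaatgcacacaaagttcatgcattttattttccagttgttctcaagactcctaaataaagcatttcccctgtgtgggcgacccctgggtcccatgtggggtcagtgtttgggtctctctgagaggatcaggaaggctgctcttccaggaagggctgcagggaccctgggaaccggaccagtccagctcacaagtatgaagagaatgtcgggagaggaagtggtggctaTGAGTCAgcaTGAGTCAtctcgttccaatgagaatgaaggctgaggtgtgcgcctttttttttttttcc

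The member levels spread widely across the lines. In bulk RNA, fewer expressing cells and less RNA per cell cannot be told apart. For each gene the highest line was divided by the lowest after scaling by library and adding 0.5 counts. The median of this ratio was 5.67 over the 136 lincRNA genes and 2.21 over the 11119 protein-coding genes that met the same CPM threshold. In 57 members (41.9%) it was 10-fold or more, against 15.8% of the protein-coding genes. In 26 members (19.1%) it was below 2-fold, against 42.7%. The sets also differed in level, with a median highest CPM of 17.8 for the members and 64.2 for the protein-coding genes. Up to the members' 95th percentile, about 64 CPM, the median ratio was 5.69 over 129 members and 2.24 over 5536 protein-coding genes. There 41.9% and 18.6% were 10-fold or more, and 16.3% and 56.1% reached 10 CPM in all lines. The median highest CPM still differed, at 17.5 and 30.6, and the remaining part of level in the spread was not tested. Over the full sets, only 25 members reached 10 CPM in all 3 lines (18.4%, against 72.7%), and 32 had no count in at least 1 line (23.5%, against 3.84%). The member threshold was passed by 78 genes in LNCAP, 73 in PC3 and 61 in DU145, and LNCAP held the highest level of 59 (43.4%, against 34.4% of the protein-coding genes), PC3 of 45 (33.1%, against 33.5%) and DU145 of 32 (23.5%, against 32.1%).

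**Figure D1:**
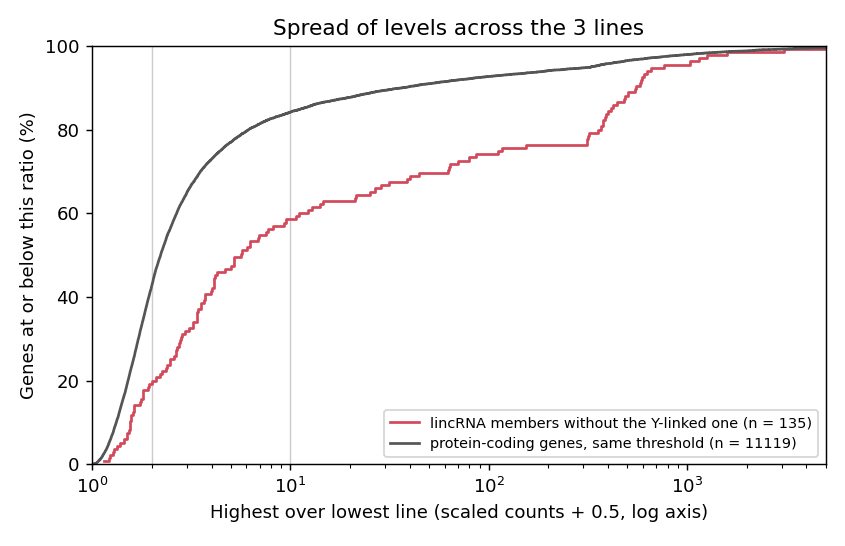
Cumulative share of genes (vertical axis, percent) by the ratio of the highest to the lowest line (horizontal log axis, scaled counts with 0.5 added), for the lincRNA members without the Y-linked gene and for protein-coding genes at the same CPM threshold. Grey lines mark 2-fold and 10-fold; the lincRNA curve stays below the protein-coding curve over most of the range, with a median ratio of 5.67 over all 136 members against 2.21.

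The most abundant member was NORAD (chr20:36045622-36050960), a single-exon RNA induced by DNA damage that binds Pumilio proteins. It had 7611, 9419 and 5908 counts in LNCAP, PC3 and DU145, or 487, 616 and 377 CPM after scaling by trimmed mean of M values (TMM), called normalised CPM from here on. The largest ratio was 1.63 between PC3 and DU145 (95% counting interval 1.58 to 1.69). NORAD alone made up 19.5%, 24.0% and 17.1% of all member counts in LNCAP, PC3 and DU145. Per length it led as well, with deposited FPKM values of 89.5, 115 and 70.5, whereas the median of the members' highest FPKM was 6.93.

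Among the 8 most abundant members, AL161431.1 and LNCAROD had no count in at least 1 line and the others were counted in all 3. AL161431.1 (chr13:109269634-109278512) had no count in LNCAP, 1261 counts in PC3 and 3430 in DU145, which is 82.5 and 219 normalised CPM. The difference from LNCAP was at least 429.9-fold for PC3 and at least 1141-fold for DU145, where the bound puts 3 counts in place of 0. LNCAROD, named as an activating regulator of the Wnt antagonist gene DKK1, had 1498 counts in PC3 and none in either other line, so it was at least 511-fold above LNCAP and at least 512-fold above DU145. DKK1 itself had 0, 39204 and 2211 counts in LNCAP, PC3 and DU145, so DU145 held DKK1 counts without a count of LNCAROD.

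LINC00665 was highest in LNCAP, with 2285 counts there, 600 in PC3 and 947 in DU145. It was 3.72-fold higher in LNCAP than in PC3 (interval 3.40 to 4.08) and 2.42-fold higher than in DU145 (2.24 to 2.61). EBLN3P, a remnant of an ancient bornavirus-like insertion, was comparatively even, with 1128, 902 and 1493 counts in LNCAP, PC3 and DU145. OLMALINC, named for oligodendrocyte maturation and lying 26389 bases from the start of the desaturase gene SCD, had 35, 549 and 1020 counts. AC015813.1 went the other way, with 866, 426 and 256 counts.

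**Figure D2:**
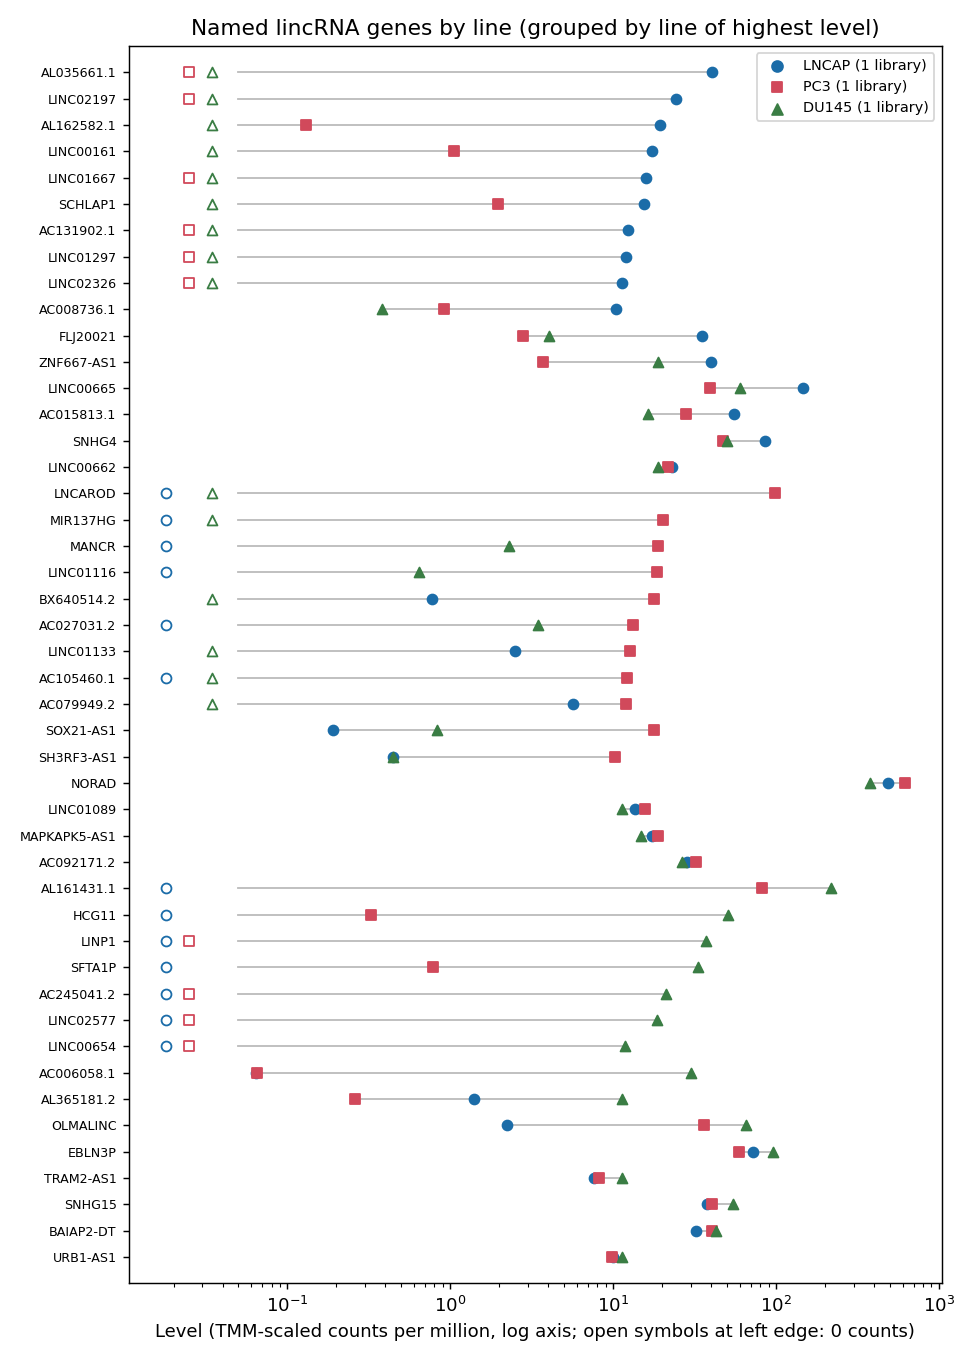
Normalised CPM (horizontal log axis) of named members in LNCAP (circles), PC3 (squares) and DU145 (triangles), 1 library each, grouped by the line with the highest level. Open symbols in the left margin are 0 counts and grey lines join the values of a gene; NORAD at the right lies between 377 and 616, while LNCAROD has a filled symbol in PC3 only.

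Members alike in all lines were few. A ratio under 1.5-fold between every pair of lines was seen in 9 members (6.62%), against 19.1% of protein-coding genes. The 8 highest of them were SNHG15, BAIAP2-DT, AC092171.2, LINC00662, MAPKAPK5-AS1, LINC01089, TRAM2-AS1 and URB1-AS1, and the remaining gene was RAB30-AS1. SNHG15, host of the snoRNA SNORA9, had 586, 621 and 848 counts in LNCAP, PC3 and DU145, and its largest ratio was 1.44 (interval 1.30 to 1.61). URB1-AS1 had 155, 151 and 177 counts, and the interval of every pair included equal levels. A ratio this small cannot be set against a spread between cultures, which was not measured.

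Of 28 listed snoRNA host genes, all were found, 8 had the lincRNA biotype and 5 of these were members: SNHG4, SNHG8, SNHG15, SNHG19 and LINC02001, listed as SNHG30. None of the 5 was 4-fold apart in any pair of lines. Of all 18025 genes at 1 CPM or more, 13% were 4-fold higher and 13.3% lower in PC3 against LNCAP. The shares were 13.7% and 12.1% in DU145 against LNCAP, and 8.54% and 10.6% in PC3 against DU145. Nothing is read from so short a list. SNHG4 (chr5:139274102-139284899) had 1337, 724 and 784 counts in LNCAP, PC3 and DU145, and SNHG8 had 452, 363 and 183. The range of SNHG19 was 106 to 168 counts and that of LINC02001 191 to 306. SNHG4 shares exons with MATR3 on the same strand and with SIL1 on the other, so its counts are uncertain.

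Among 27 listed microRNA host genes, 26 were found and 7 were members. MIR4435-2HG had 14, 378 and 646 counts in LNCAP, PC3 and DU145, MIR503HG had 5, 376 and 346, and MIR222HG had 28, 308 and 42. MIR503HG was thus 76.9-fold higher in PC3 than in LNCAP (interval 32.7 to 238) and 69-fold higher in DU145 (29.3 to 214), whereas MIR222HG, host of the shared-seed pair miR-221 and miR-222, was high in PC3 alone. MIR222HG was 11.3-fold above LNCAP there (7.63 to 17.2) and 7.52-fold above DU145 (5.43 to 10.6).

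The remaining hosts on the list were higher in LNCAP or were within 4-fold in the pairs. MIR34AHG, host of miR-34a, had 306, 9 and 43 counts in LNCAP, PC3 and DU145, so LNCAP stood 33.2-fold above PC3 (17.3 to 73.4) and 7.13-fold above DU145 (5.17 to 10.1). MIR29B2CHG, host of miR-29b and miR-29c, was also highest in LNCAP, with 326, 103 and 22 counts in LNCAP, PC3 and DU145. MIRLET7BHG had 290, 217 and 73 counts, and MIR22HG had 199, 216 and 471. AC048341.1, which contains let-7i and was added after its values were seen, had 38, 196 and 133 counts, so the hosts of let-7 microRNAs with the same seed were highest in different lines. MIR137HG, also a microRNA host, had 308 counts in PC3 and none in either other line. The deposited entries for the hosted microRNA genes themselves held between 0 and 35 counts in these libraries, and the mature microRNAs were not measured.

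Each pair of lines was read with a 4-fold rule: a gene was called when its ratio of scaled counts was at least 4 and the 95% counting interval excluded equal levels. By this rule 32 of 136 members were higher in PC3 than in LNCAP, where 13% of all 18025 genes at 1 CPM or more were, and 10.9% of the 11119 protein-coding genes at the member threshold. Lower in PC3 were 29 members, beside 13.3% of all genes and 8.13% of the protein-coding genes. In DU145 against LNCAP 29 members were higher, beside 13.7% and 10.8%, and 31 were lower, beside 12.1% and 7.45%. In PC3 against DU145 26 members were higher, beside 8.54% and 6.1%, and 15 were lower, beside 10.6% and 6.96%. A member had to be high in some line to be chosen, so nothing is read from these shares. The median log2 ratio was 0.03 in PC3 against LNCAP (-0.01 over all genes), -0.34 in DU145 against LNCAP (0.00) and 0.18 in PC3 against DU145 (0.02). The intervals cover counting error only.

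The class comparison, PC3 and DU145 together against LNCAP, called no member and no other gene by edgeR's quasi-likelihood test with 1 residual degree of freedom; the called share was 0% of 18025 genes and the smallest adjusted p was 0.266. At an unadjusted p under 0.05, 14 members were higher and 12 lower, beside 969 and 777 of all genes. DESeq2 called 22 members higher and 10 lower, beside 912 and 394 of all genes, and limma-voom called 0.

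Both comparisons with LNCAP share its library, so members that passed in both are a description of that library against the others. There were 20 members higher in both PC3 and DU145, where 7.56% of all 18025 genes and 7.05% of the protein-coding genes at the member threshold were, and nothing is read from the count: AC004816.1, AC015712.1, AC027031.2, AC084033.3, AL161431.1, AL365203.2, BX470102.2, CYP4F26P, CYTOR, LINC00941, LINC00973, LINC01116, LINC01515, LINC01836, MANCR, MIR4435-2HG, MIR503HG, OLMALINC, SFTA1P and TTLL11-IT1. MANCR, a mitosis-associated RNA, had 0, 290 and 36 counts in LNCAP, PC3 and DU145, so that PC3 was at least 98.9-fold and DU145 at least 12-fold above LNCAP. LINC01116 had 0, 284 and 10 counts, with bounds of 96.8-fold and 3.33-fold, and AC027031.2 had 0, 203 and 54. The calls added 0.5 counts while the bounds put 3 counts in place of 0, so LINC01116 was called in DU145 with a bound under 4-fold. OLMALINC was 16-fold higher in PC3 (interval 11.4 to 23.3) and 29.1-fold higher in DU145 (20.8 to 42.0).

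CYTOR, the cytoskeleton regulator RNA, had 50, 241 and 285 counts, and MIR4435-2HG, which shares long stretches with it, had 14, 378 and 646. At 95% identity 68.2% of the longest MIR4435-2HG transcript matched CYTOR, so reads of this pair may have been split between them. Such a copy covering at least 50% of the transcript was found for 10 members: AC022400.5, AC245041.2, CYP4F26P, LINC00342, LINC01123, LINC01297, LINC01410, MIR4435-2HG, MUC20-OT1 and NORAD. The copy of NORAD, OVCH1-AS1, had 3 counts at most.

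Lower in both PC3 and DU145 were 21 members, beside 7.51% of all genes and 4.29% of the protein-coding genes: AC008736.1, AC012531.1, AC131902.1, AL035661.1, AL139246.5, AL162582.1, AL645608.2, FAM111A-DT, FLJ20021, LINC00161, LINC01297, LINC01667, LINC02197, LINC02326, LINC02593, MIR34AHG, PURPL, PWAR6, SCHLAP1, TP53TG1 and the Y-linked gene. AL035661.1 (chr20:24931840-24932983) had 629 counts in LNCAP and 0 in the other lines, so it was at least 205-fold lower in PC3 and at least 210.2-fold lower in DU145. LINC02197, with 381 counts, LINC01667, with 250, AC131902.1, with 194, LINC01297, with 187, and LINC02326, with 178, were likewise counted in LNCAP and at 0 elsewhere. AL162582.1 had 303, 2 and 0 counts and LINC00161 had 271, 16 and 0.

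Of the 24 listed prostate and androgen-linked long non-coding RNAs, 22 were found and 12 were lincRNA genes. Only 2 were members, SCHLAP1 and the Y-linked gene. SCHLAP1, an antagonist of the SWI/SNF remodelling complex known from prostate tumours, had 242, 30 and 0 counts in LNCAP, PC3 and DU145. LNCAP was 7.89-fold above PC3 (interval 5.38 to 11.9), and DU145 was at least 80.9-fold below LNCAP. Both members of the list were lower in PC3 and in DU145 than in LNCAP, as were 7.51% of all 18025 genes.

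The list of cancer and stress-linked long non-coding RNAs gave 14 members out of 33 lincRNA genes found. In PC3 against LNCAP 4 of them were higher and 2 lower, in DU145 against LNCAP 4 were higher and 3 lower, and in PC3 against DU145 3 were higher and 2 lower. The shares called among all genes are those given above, 13% and 13.3%, 13.7% and 12.1%, and 8.54% and 10.6%. Besides CYTOR, LINC01116 and LINC00973, the higher genes were LINC01133 in PC3 and HCG11 in DU145. LINC00973 had 0, 155 and 32 counts. PURPL and TP53TG1, RNAs named for p53, were lower in both lines. PURPL had 160, 0 and 11 counts in LNCAP, PC3 and DU145, and TP53TG1 had 199, 37 and 38. TP53TG1 was 5.26-fold higher in LNCAP than in PC3 (3.69 to 7.69) and 5.25-fold higher than in DU145 (3.70 to 7.64). FTX, EPB41L4A-AS1, LINC00467, LINC00662, LINC01089, LINC00665 and NORAD were not called in any pair.

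PWAR6 and LINC02593 were singled out after their values were seen. PWAR6, a transcript of the imprinted Prader-Willi region, had 769, 114 and 102 counts in LNCAP, PC3 and DU145, which made LNCAP 6.60-fold higher than PC3 (5.41 to 8.10) and 7.56-fold higher than DU145 (6.14 to 9.38). LINC02593 and AL645608.2, on opposite strands of chromosome 1 near SAMD11, had 349, 5 and 22 counts and 270, 28 and 48 counts. SAMD11 had 541, 6 and 70.

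Some members were apart from LNCAP in a single line. Higher in PC3 and not called in DU145 were 10 members, beside 4.99% of all genes and 3.4% of the protein-coding genes: AC048341.1, AC092747.4, AC105460.1, AF117829.1, LINC00342, LNCAROD, MIR137HG, MIR222HG, SH3RF3-AS1 and SOX21-AS1. Lower in PC3 and not called in DU145 were 7, beside 5.45% and 3.44%: AC006504.1, AC104825.1, AP003486.1, LINC01123, LINC01291, LINC01569 and ZNF667-AS1. Higher in DU145 and not called in PC3 were 8, beside 5.8% and 3.39%: AC006058.1, AC245041.2, HCG11, LINC00648, LINC00654, LINC01410, LINC02577 and LINP1. Lower in DU145 and not called in PC3 were 8, beside 4.12% and 2.7%: AC079949.2, AC103706.1, AF165147.1, BX890604.2, LINC00839, LINC00960, MIR29B2CHG and ZNF674-AS1. LINC01133 and BX640514.2 were higher in PC3 and lower in DU145 (as were 0.449% of all genes and 0.459% of the protein-coding genes), AL365181.2 was lower in PC3 and higher in DU145 (0.361% and 0.405%), and the other 59 members were called in neither.

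Between PC3 and DU145 the leading genes had few or no counts in the lower of these lines, and some were also counted in LNCAP. LINP1, an RNA of the non-homologous end joining pathway, had 578 counts in DU145 and none in PC3 or LNCAP, and was at least 188-fold lower in PC3. HCG11 had 0, 5 and 797 counts in LNCAP, PC3 and DU145, and was 155-fold higher in DU145 than in PC3 (66.4 to 480.2). AC245041.2 had 329 counts, LINC02577 had 293 and LINC00654 had 184, all in DU145, with 0 in the other lines, and AC006058.1 had 1, 1 and 473. AC245041.2 matches the coding gene ANXA8 over its whole length, and ANXA8 had 22 counts in DU145.

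In the other direction BX640514.2 had 12, 271 and 0 counts in LNCAP, PC3 and DU145, LINC01133 had 39, 195 and 0, and AC079949.2 had 89, 184 and 0. These 3 were at least 92.6-fold, 66.6-fold and 62.9-fold higher in PC3 than in DU145. AC105460.1 had 187 counts in PC3 alone. Counting genes with 1 line at least 10-fold above both others gave 25 members (18.4%, against 5.71% of protein-coding genes), 11 for LNCAP and 7 for each of PC3 and DU145. The reverse, 1 line at least 10-fold below both others, was seen for LNCAP in 19 members, for DU145 in 9 and for PC3 in 3. This reverse was not counted over other genes, and the members were chosen by level, so nothing is read from it.

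Gene position was not used to choose the members. Another gene's span overlapped that of 81 members. An exon overlapped an exon of another gene on the same strand in 22 and on the other strand in 38, and 85 had neither. The strand setting of the counting is not given in the sources used here, so values of the overlapping genes are uncertain. MIR137HG shares exons with DPYD, which had 2, 397 and 36 counts, and HCG11, NORAD, LNCAROD, AL161431.1 and OLMALINC had no exon overlap. Among the other leading genes LINP1 shares exons with gene models on its own strand, and AC006058.1, AC105460.1, LINC00654, LINC01116, LINC02197, LINC02577, MANCR and SCHLAP1 share them with models on the other strand. A single exon was annotated for 33 members (24.3%), against 15.7% of the 7493 other lincRNA genes and 1.40% of the protein-coding genes.

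Members lay close to protein-coding genes. The start of a protein-coding gene on the opposite strand, within 1000 bases and head to head, was found for 36 members (26.5%). The same held for 476 of the 7493 other lincRNA genes (6.35%) and for 17.8% of the protein-coding genes. The median distance to the nearest protein-coding start was 27271 bases for members, 76547 for other lincRNA genes and 25212.5 for the protein-coding genes. Within the members this arrangement varied with the spread across lines: 13 of the 26 genes under 2-fold were head to head, 17 of the 53 between 2-fold and 10-fold, and 6 of the 57 at 10-fold or more. The median distances to the neighbour were 740, 15422 and 56301 bases in the same order.

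Head-to-head pairs with the widest spread were SOX21-AS1, AL365181.2, AC008736.1, SH3RF3-AS1, FLJ20021 and ZNF667-AS1. SOX21-AS1, which starts 317 bases from the transcription factor gene SOX21, had 3, 273 and 13 counts in LNCAP, PC3 and DU145, and SOX21 had 0, 427 and 8. SH3RF3-AS1 had 7, 157 and 7 counts beside 45, 1199 and 22 for SH3RF3. FLJ20021 had 548, 43 and 63 beside 8755, 1325 and 1071 for PPP3CA, a calcineurin catalytic subunit. AC008736.1 had 162, 14 and 6 beside 2184, 350 and 766 for NUDT19. AL365181.2 had 22, 4 and 178 beside 20, 6 and 144 for the brain proteoglycan gene BCAN, and ZNF667-AS1 had 627, 57 and 296 beside 360, 73 and 184 for ZNF667. In each of these 6 pairs both genes were highest in the same line. ZNF667-AS1 shares exons with ZNF667 on the other strand, so the counts of that pair are uncertain.

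Other pairs ran together less closely. TRAM2-AS1 and TRAM2 kept the same order of lines with unequal sizes, at 119, 125 and 178 counts beside 399, 1253 and 2005. BAIAP2-DT had 504, 615 and 672 while BAIAP2 had 1450, 487 and 859, and AL139246.5 had 174, 42 and 25 while HES5 had 3 counts at most. These 3 pairs were picked after their values were seen.

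For 111 members the nearest protein-coding gene reached 1 CPM in some line, so that ratios could be set side by side. Both ratios had the same sign in 83 of 111 for PC3 against LNCAP (74.8%), 74 for DU145 against LNCAP (66.7%) and 82 for PC3 against DU145 (73.9%). For protein-coding genes and their nearest protein-coding neighbours these shares were 62.5%, 61.1% and 65.7%. Across these genes, which share the libraries and are not independent replicates, Pearson's r of the log2 ratios was 0.67, 0.58 and 0.63 for members, and 0.29, 0.28 and 0.30 for protein-coding genes. The median absolute log2 difference from the neighbour was larger for members, at 1.095, 1.17 and 0.862, against 1.003, 1.014 and 0.715 for protein-coding genes. Members also had wider ratios of their own. Over all 136, the median absolute log2 ratio was 1.48, 1.75 and 1.02. Over the 11119 protein-coding genes it was 0.754, 0.746 and 0.637. The part of this wider range in the higher r was not tested. Among 48 members with a neighbour start within 10 kb, r was 0.84, 0.83 and 0.83. Among the 63 farther away r was 0.62, 0.47 and 0.59. The signs matched in 77.1%, 68.8% and 68.8% of the near pairs and in 73.0%, 65.1% and 77.8% of the far pairs. For the 35 head-to-head pairs the shares were 77.1%, 65.7% and 65.7%. In the 48 members whose span overlapped no other gene the signs matched in 37, 31 and 37, with r of 0.74, 0.69 and 0.75. Of members at least 4-fold apart, the neighbour was also at least 4-fold apart in the same direction for 22 of 48, 17 of 44 and 12 of 31, and in the opposite direction for 0, 1 and 1. The neighbour was under 2-fold apart for 16, 14 and 10 of these members. Among protein-coding genes at least 4-fold apart, the neighbour was 4-fold apart in the same direction for 400 of 1642, 398 of 1557 and 231 of 1107.

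**Figure D3:**
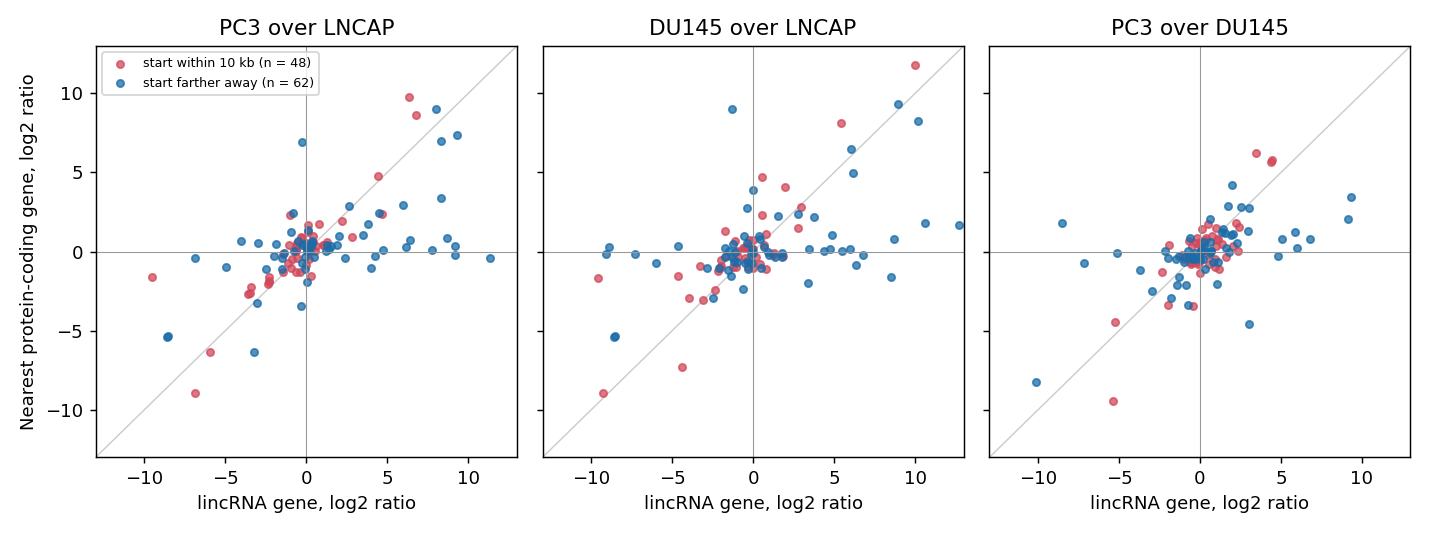
Log2 ratio of the nearest protein-coding gene (vertical axis) against that of the lincRNA member (horizontal axis) in the 3 pairs of lines, for members whose neighbour reached 1 CPM, without the Y-linked gene. Red points have the neighbour's start within 10 kb and blue points farther away, the grey diagonal marks equal ratios, and red points lie closer to it, with r between 0.83 and 0.84.

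Pairs that were not head to head showed both patterns, in genes picked after their values were seen. SFTA1P, a surfactant-associated pseudogene RNA, had 0, 12 and 520 counts in LNCAP, PC3 and DU145, and the RNA-binding protein gene CELF2, 3417 bases away, had 0, 2 and 1790. LINP1 lay 129229 bases from the kinase gene PRKCQ, which had 0, 0 and 154 counts. BX470102.2, with 1, 162 and 65 counts, lay 6862 bases from S100A16, with 19, 7554 and 5535. LINC00973 lay 79369 bases from DCBLD2, which had 144, 18206 and 12717. In contrast AL161431.1 lay 516934 bases from IRS2, an insulin receptor substrate gene, which had 264, 195 and 854 counts, and MIR503HG lay 86479 bases from HPRT1, which had 706, 860 and 810.

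Promoter windows were matched to 56 of the 136 members, of which 48 had the RefSeq start within 1000 bases of the start in the files. A window was called CpG-rich when the ratio of observed to expected CG exceeded 0.6 and at least 50% of its bases were G or C. This held for 29 of 56 members (51.8%), for 46.9% of all 27305 promoters in the table and for 83.5% of those of the protein-coding genes at the member threshold. The share differed by spread across the lines: 12 of 14 members under 2-fold were CpG-rich, 10 of 16 between 2-fold and 10-fold, and 7 of 26 at 10-fold or more. Windows over 1000 bases from the start in the files were mostly in the 10-fold group. There they were those of LNCAROD, MIR29B2CHG, MIR4435-2HG, LINP1, MIR34AHG, LINC02593 and LINC01515. MIRLET7BHG was the exception, between 2-fold and 10-fold. Such windows may not mark where the counted RNA starts. URB1-AS1 and SCAMP1-AS1, shown above with their CG letters, belong to the first group and lie 104 and 76 bases from the starts of URB1 and SCAMP1. MANCR, with 2 CG dinucleotides in its window, belongs to the last.

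**Figure D4:**
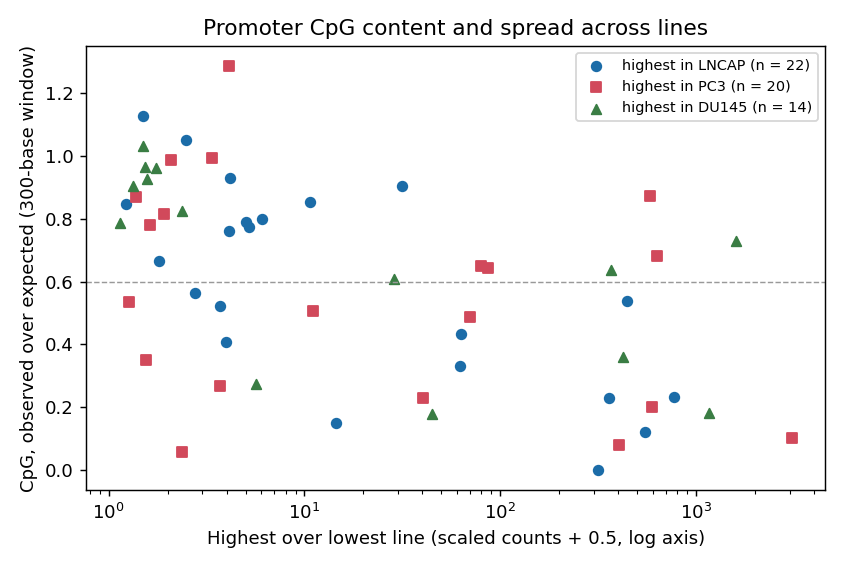
Ratio of observed to expected CG in the 300-base promoter window (vertical axis) against the ratio of the highest to the lowest line (horizontal log axis, scaled counts with 0.5 added) for 56 members, by the line with the highest level. The dashed line marks a CG ratio of 0.6; most points left of 2-fold lie above it and most points right of 10-fold lie below it or near it.

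The letters TGANTCA, searched on both strands, occurred in 5 of the 56 windows (8.93%) and in 7.76% of all promoters. The 5 were OLMALINC, MANCR, CYTOR, MIR4435-2HG and EIF3J-DT. The first 4 belong to the 9 matched members that were higher in both PC3 and DU145 than in LNCAP, EIF3J-DT was under 2-fold apart across the lines with 109, 157 and 171 counts, and none of the 8 matched members lower in both held the letters. The CYTOR and MIR4435-2HG windows aligned over 241 identical bases with 0 mismatches and 118 gaps, an identity of 80.3%. They are therefore taken as related copies and not as separate cases. The palindromic androgen response element (AGAACA and TGTTCT, 3 bases apart) was found in 0 of 56 windows and in 1 of the 27305 promoters, and TATAAA in 6 of 56 (10.7%, against 12.0% of all promoters). A match describes the letters in the window and not binding.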

How the data were processed

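RNA sequencing of LNCAP, PC3 and DU145, with 1 library each, was analysed. The authors deposited raw whole-number counts per gene and FPKM values per gene. The deposited FPKM values are the counts rescaled by gene length and library, so both hold the same data. Per the submitters' processing notes, TopHat2 2.0.9, Bowtie2 2.0.6, Cuffdiff 2.1.1 and Cufflinks 2.1.1 were used, without roles stated. Not given in the sources used here are the counter, its strand setting, its treatment of reads with several matches, and the build. All 58735 gene coordinates equalled GENCODE release 29, so they are given on GRCh38.

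Members and gene lists were chosen with earlier results of these data known. TMM scaling used factors of 1.016, 0.998 and 0.987 for LNCAP, PC3 and DU145 (edgeR 4.0.16, R 4.3.3). Ratios carry exact conditional binomial (Clopper-Pearson) 95% intervals (scipy 1.17.1, numpy 2.4.6, pandas 2.3.3, Python 3.11.15), which cover counting error only, since without molecular identifiers reads may repeat a molecule. The log2 ratio used for calls had 0.5 counts added. A count of 0 allows up to 3 counts, or 0.195, 0.196 and 0.189 CPM in LNCAP, PC3 and DU145, and no fold is given where both libraries held 3 or fewer. The pair rule was tested on simulated Poisson counts for PC3 against LNCAP: 200 of 200 genes changed 8-fold were called, and 13 of the other genes among 18025. DESeq2 1.42.0 and limma 3.58.1 were alternatives in the class comparison.

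Named were the 8 highest members, the 8 highest under 1.5-fold, the 6 each way with the largest near bound in each pair, the 6 widest head-to-head pairs, the list members, the threshold neighbours, and others said to be chosen after their values were seen. A list of 7 short structured RNAs gave no member. Promoter and microRNA sequences are RefSeq's, matched by symbol, chromosome and strand. Figures used matplotlib 3.10.9.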

Additional observations from a re-analysis of the deposited data

How the results depend on the processing

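With 1 library per line, no replicate could be left out and no spread between cultures was measured. No paired analysis was possible because each line has 1 library. Leaving a line out of the class comparison leaves no residual degrees of freedom. Over the alternatives, 66 counts and values that answer a comparison stayed within 1.5 times of the reported value, and 32 did not. Alternatives on overlapping exons and near-identical copies were chosen after seeing the data.

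In the order PC3 against LNCAP, DU145 against LNCAP and PC3 against DU145, and higher before lower, member counts 4-fold apart were 32 and 29, 29 and 31, 26 and 15. A threshold of 5 CPM (273 members) gave 68 and 69, 56 and 68, 54 and 36. A threshold of 20 CPM (52 members) gave 12 and 8, 12 and 10, 9 and 7. Leaving out members whose span overlapped another gene (55 remained) gave 15 and 10, 12 and 12, 8 and 7. The balance of higher and lower turned at 5 CPM in PC3 against LNCAP and at 20 CPM in DU145 against LNCAP. On the same 136 members, FPKM with 1 added moved the lower count of PC3 against LNCAP to 18, the counts of DU145 against LNCAP to 15 and 17, and those of PC3 against DU145 to 15 and 7. FPKM with 0.1 added gave 31 and 25, 28 and 28, 23 and 13, all within 1.5 times of the reported counts. Without members with overlapping exons (85 remained), the higher count of DU145 against LNCAP was 18, and PC3 against DU145 gave 17 and 9. The other thresholds and the overlap settings change the number of genes by construction. The cause of the change seen with 1 added to FPKM was not tested. Members at 1 FPKM or more numbered 859. DESeq2 called 22 members higher and 10 lower, and 912 and 394 of all genes, where edgeR called 0. The median absolute log2 difference between a member and its neighbour in PC3 against LNCAP was 1.10, and 0.68 within 10000 bases.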
